A study of Mus musculus with 8 samples.

Results

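The transcription factors that divide the cells of the anterior pituitary into hormone lineages were examined in isolated gonadotropes, the cells that make luteinizing hormone and follicle-stimulating hormone. The genes are *Gata2*, *Foxl2* and *Isl1*, which are known as factors of the gonadotrope lineage, *Pitx1* and *Lhx3*, which act in several lineages, and *Pou1f1*, *Tbx19*, *Neurod1* and *Neurod4*, which are best known from other lineages. They were chosen by symbol and are 9 of the 55523 entries of the count table. All 9 passed the filter on low counts, as did 20152 entries in all, and each had between 162 and 38107 counts in every sample.

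The hormone cells of the anterior pituitary arise from a common progenitor, and each lineage is set up by its own combination of DNA-binding proteins. PITX1 and LHX3 act early and in many of the lineages. POU1F1 is required for somatotropes, lactotropes and thyrotropes, and TBX19 for transcription of *Pomc* in corticotropes and melanotropes, whereas GATA2 acts in gonadotropes and thyrotropes and FOXL2 is needed for full transcription of *Fshb*, the β subunit of follicle-stimulating hormone.

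Cells were sorted by EGFP from pituitaries of the mouse line Ad4BP-BAC-EGFP, in which a bacterial artificial chromosome of the *Nr5a1* (Ad4BP) locus drives EGFP. All 8 samples, 4 female and 4 male, carry this transgene, and no other allele or treatment is named. Age, strain and the number of glands in a sample are not given in the sources used here, and nothing says that the samples of a sex came from separate animals, so p-values measure only the spread between these samples. A cell enters a sample by its EGFP, whichever hormone it makes.

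Total counts ran from 18774578 to 31302588 a sample. At these depths 3 counts, the floor used here, equal 0.0921 to 0.146 CPM (the count per library total scaled by TMM factors), a limit for counting error only. Male replicate 1 stood apart, and the study left it out. Its *Nr5a1*, the gonadotrope factor whose locus drives the transgene, was at 16.3 CPM, against 584 to 801 CPM in male replicates 2 to 4 and 862 to 1266 CPM in the females. Its values are therefore given apart, and "males" below means male replicates 2 to 4. The defining genes of gonadotropes (*Cga*, *Lhb*, *Fshb* and *Gnrhr*) were above the floor in all 8 samples. Their summed level was 20626 to 33597 CPM in females, 67129 to 75133 CPM in males and 28407 CPM in male replicate 1. Hormone genes of other lineages were also high, with *Gh*, growth hormone, between 12394 and 142244 CPM and *Pomc* between 10140 and 28580 CPM over the 8 samples. No defining marker of the other lineages was at 0 in any sample. In such bulk samples, fewer cells of a type and less RNA per cell cannot be told apart.

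The DNA just before the start of a gene is where these factors may bind, and 250 bases of it were read from RefSeq (build GRCm38.p6) for 8 of the 9 genes, in 12 windows. By the exons of GENCODE M21 the *Foxl2* window and the second *Gata2* window lie wholly in exon, as do 115 bases of the *Neurod1* window, so these were searched but are not shown. *Pitx1* had no entry. Both strands were searched for 7 short motifs. PITX proteins are known to bind TAATCC, the family of GATA2 binds GATAA, and NEUROD proteins with their partners bind the E-box, CANNTG. NR5A1 binds AAGGTCA, POU1F1 binds ATGNATAA, and T-box proteins bind half-sites such as GGTGTGA, while TATAAA is the TATA box. Among 32851 such windows of mouse genes, TAATCC was in 6.25%, GATAA in 22.6%, CANNTG in 66.2%, AAGGTCA in 4.08%, ATGNATAA in 2.68%, GGTGTGA in 3.33% and TATAAA in 12.4%. ATGNATAA and TATAAA can overlap. The windows of *Gata2* and *Pou1f1* are shown because both genes differed between the sexes, that of *Neurod4* because it was lowest in male replicate 1, and that of *Isl1* for its GATA and PITX letters. Each runs 5′ to 3′ on the strand of its gene, and capitals mark a match other than the E-box.
Gata2: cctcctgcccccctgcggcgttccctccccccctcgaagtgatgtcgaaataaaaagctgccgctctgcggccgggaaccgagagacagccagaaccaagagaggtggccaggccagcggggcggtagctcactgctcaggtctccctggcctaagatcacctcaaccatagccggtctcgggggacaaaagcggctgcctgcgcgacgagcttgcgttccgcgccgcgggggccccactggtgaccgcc
Pou1f1: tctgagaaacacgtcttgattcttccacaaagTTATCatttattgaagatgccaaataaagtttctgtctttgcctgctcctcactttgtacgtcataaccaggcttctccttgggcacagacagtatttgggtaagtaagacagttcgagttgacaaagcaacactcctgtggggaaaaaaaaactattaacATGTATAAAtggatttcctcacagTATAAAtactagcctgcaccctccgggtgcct
Isl1: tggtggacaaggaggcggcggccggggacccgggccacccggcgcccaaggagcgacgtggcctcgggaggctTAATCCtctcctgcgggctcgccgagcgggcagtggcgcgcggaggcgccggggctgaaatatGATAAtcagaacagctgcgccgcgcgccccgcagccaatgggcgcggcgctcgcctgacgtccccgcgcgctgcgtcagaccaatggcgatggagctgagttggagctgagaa
Neurod4: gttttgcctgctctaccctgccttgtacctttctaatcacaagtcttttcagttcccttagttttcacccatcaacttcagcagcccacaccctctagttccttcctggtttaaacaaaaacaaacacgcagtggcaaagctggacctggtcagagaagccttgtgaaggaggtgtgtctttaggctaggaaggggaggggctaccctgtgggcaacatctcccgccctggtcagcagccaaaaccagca
The *Gata2* window (chr6:88193641-88193890, plus strand) and the *Neurod4* window (chr10:130280255-130280504, minus strand) held none of the 7 motifs. The first *Pou1f1* window (chr16:65520262-65520510, plus strand), which is the one shown, held the letters of POU1F1's own motif 57 bases before the start, overlapping a TATAAA at 54 bases. It also held a further TATAAA at 33 bases and TTATC, which is GATAA on the other strand, at 218 bases. The *Isl1* window (chr13:116309690-116309938, minus strand) held TAATCC 177 bases before the start, GATAA at 114 bases and the E-box CAGCTG at 103 bases. *Tbx19* (window chr1:165160774-165161023) held GATAA at 152 and 141 bases and an E-box at 66 bases. *Lhx3* held TATAAA at 176 bases in 1 window and an E-box at 215 bases in the other. *Neurod1* held an E-box at 242 bases, and the second *Pou1f1* window an E-box at 151 bases. The *Foxl2* window and the second windows of *Gata2* and *Neurod4* held none. Matches in these genes were not tested against the shares over all windows. A match describes letters only, and binding was not measured.

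Males and females were compared first. *Gata2*, *Pitx1* and *Pou1f1* were higher in males, and none of the 9 genes was called higher in females. Among all entries tested, 0.983% were called higher in males and 1.35% higher in females, 2.34% together. The samples of the sexes did not overlap for 4 of the 9 genes, *Gata2*, *Foxl2*, *Pitx1* and *Pou1f1*, and for 22.3% of all entries tested. The median log2 fold change, male over female, was 0.23 over the 9 genes and -0.03 over all entries tested. With scaling by library size alone the latter was -0.24, and 16.5% of calls were higher in males, against 42.0% with the scaling used here. Calls are from edgeR's quasi-likelihood test with Benjamini-Hochberg adjustment over the 20152 entries, at a threshold of 0.05.

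**Figure D1:**
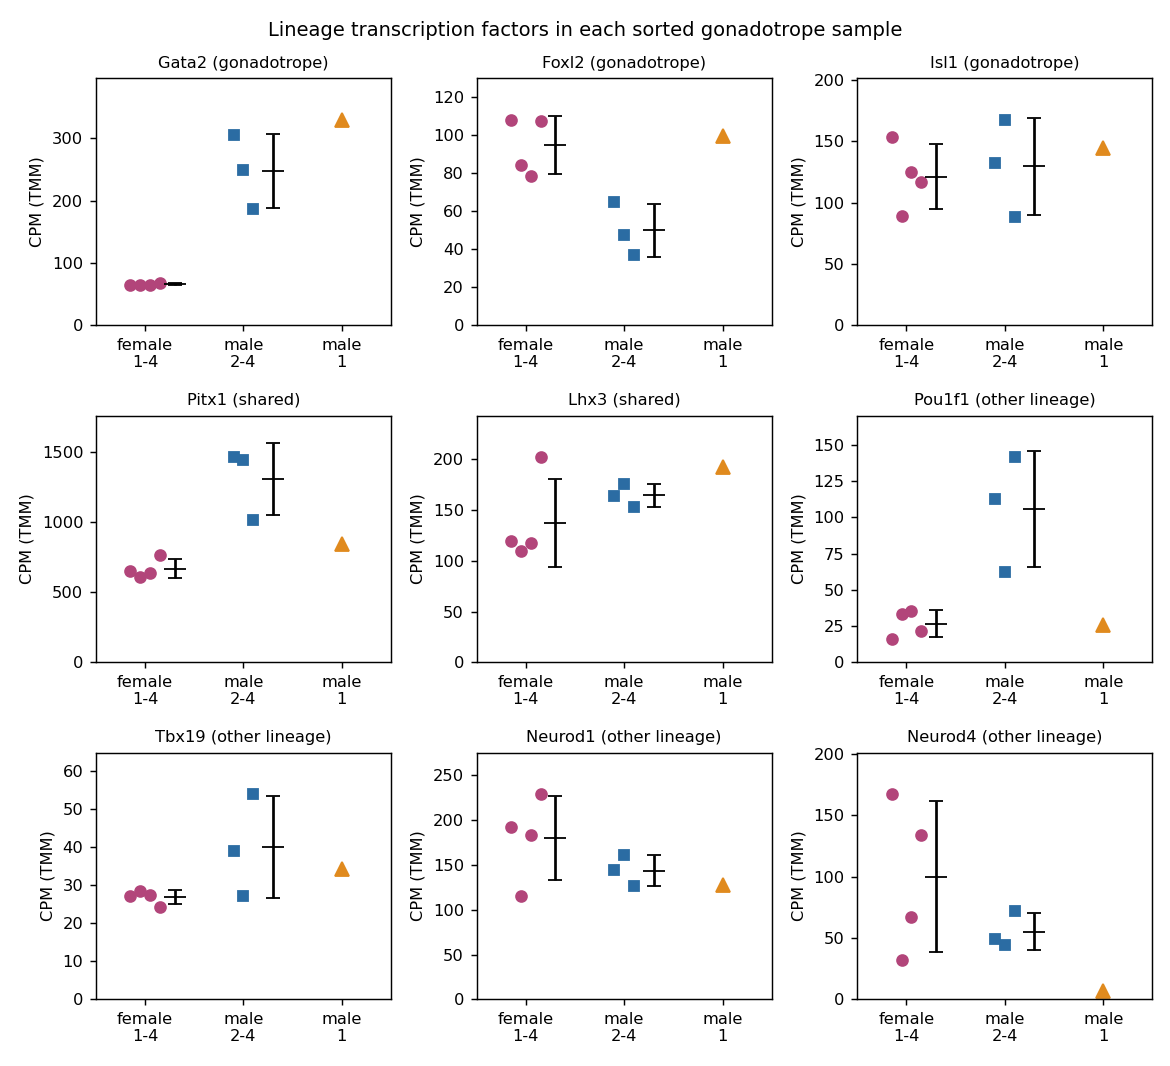
The CPM of each lineage factor is plotted on a linear axis from 0, with circles for female replicates 1 to 4, squares for male replicates 2 to 4, a triangle for male replicate 1, and bars for the mean ± SD of a sex. *Gata2* sits at 64.4 to 68.5 CPM in females and 187 to 306 CPM in males, *Foxl2* is higher in every female than in any of these males, and *Isl1* overlaps.

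*Gata2* encodes a zinc finger factor of gonadotropes and thyrotropes (chr6:88193891-88207032, plus strand, mm10). It was at 64.4, 64.8, 64.8 and 68.5 CPM in female replicates 1 to 4 and at 306, 250 and 187 CPM in male replicates 2 to 4. The females lay within a few CPM of each other, and the lowest male was far above all of them. The means were 65.6 ± 1.90 CPM in females (SD, n = 4) and 248 ± 59.7 CPM in males (SD, n = 3), a ratio of 3.77. On the log2 scale the change was 1.88 (SE 0.17), with an adjusted p of 0.00885. The call held with each replicate left out in turn, with adjusted p between 0.00750 and 0.0316, and with male replicate 1 included (0.0102). The thyrotrope markers *Tshb* and *Trhr* had the same order, with sums of 21.4 to 85.2 CPM in females and 238 to 345 CPM in males, and their part in the *Gata2* difference was not tested. In male replicate 1 the sum was 83.6 CPM, inside the female range, while *Gata2* was at 330 CPM.

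*Foxl2* encodes a forkhead factor that acts with SMAD proteins downstream of activin (chr9:98955288-98958543, plus strand). It was at 108, 84.4, 78.7 and 107 CPM in the females and at 64.6, 47.6 and 37.1 CPM in the males. Every female was above every male, the opposite order to *Gata2*. The means were 94.6 ± 15.3 CPM (SD, n = 4) and 49.8 ± 13.9 CPM (SD, n = 3), and the female mean was 1.90 times the male mean. The log2 fold change was -0.96 (SE 0.23) and missed the threshold, with an adjusted p of 0.0778. It passed with DESeq2, with an adjusted p of 0.00572, and with scaling by library size alone, with an adjusted p of 0.0488. *Foxl2os*, an RNA on the opposite strand whose 5′ exon overlaps the start of *Foxl2*, had a log2 fold change of -0.98 (SE 0.28, adjusted p = 0.12). By GENCODE M21 this overlap is short, from 98955288 to 98955299. The counting used default settings, which do not use strand and leave out reads that overlap more than 1 gene. Reads of the overlap cannot be told apart by strand.

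*Isl1* encodes a LIM homeodomain factor of gonadotropes and thyrotropes (chr13:116298281-116309689, minus strand). It was at 153, 89.2, 125 and 117 CPM in the females and at 133, 168 and 88.7 CPM in the males. The sexes overlapped over most of their range. The log2 fold change was 0.07 (SE 0.26), and the adjusted p was 0.927. The direction was not stable, because it turned with library size alone (-0.14), without female replicate 2 (-0.03) and without male replicate 3 (-0.16). The 3 gonadotrope factors thus had a different pattern each: *Gata2* was called higher in males, *Foxl2* was higher in every female without a call, and *Isl1* overlapped.

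Since *Gata2* and *Foxl2* are measured in the same library, their ratio of CPM does not depend on how the library is scaled. It was 0.596, 0.768, 0.824 and 0.637 in the females and 4.74, 5.24 and 5.05 in the males, and it was 3.33 in male replicate 1. The ratio was thus close among the males although both genes were lowest in male replicate 4. All 4 males, including the one left out, were above all females. The ratio was formed after the values of both genes were seen and has no test.

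Of the factors shared by lineages, *Pitx1* encodes a paired-like homeodomain factor of the anterior lobe (chr13:55825051-55836192, minus strand). It was at 651, 610, 636 and 766 CPM in the females and at 1464, 1439 and 1012 CPM in the males. No male was below a female. The means were 666 ± 68.6 CPM (SD, n = 4) and 1305 ± 254 CPM (SD, n = 3), a ratio of 1.96. This gave a log2 fold change of 0.94 (SE 0.16), with an adjusted p of 0.0417. The call was lost with library size alone (adjusted p = 0.0609), with no filter (0.0624), with male replicate 1 included (0.186) and when any sample but male replicate 4 was left out (adjusted p of 0.0605 without female replicate 4 to 0.143 without male replicate 3, over 6 fits). *Gm28760*, a long noncoding RNA listed under the same locus and inside the span of *Pitx1* on its strand, had a log2 fold change of 1.11 (SE 0.20, adjusted p = 0.046), and reads of the shared stretch may have been left out of the counts. *Gm28760* had only 153 to 557 counts a sample, against 12514 to 38107 for *Pitx1*. Its call was lost when any of the 7 samples was left out (adjusted p of 0.0627 to 0.146). It was lost also with library size alone (0.0609), with no filter (0.0726) and with male replicate 1 included (0.0940).

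*Lhx3* encodes a LIM homeodomain factor needed for most anterior lobe lineages (chr2:26200212-26208289, minus strand). It was at 119, 109, 118 and 203 CPM in the females and at 164, 176 and 154 CPM in the males. Female replicate 4 was above all males, and the other females were below all males. The log2 fold change was 0.23 (SE 0.24, adjusted p = 0.673), and it was 0.50 without female replicate 4, still not past the threshold.

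Of the factors best known from other lineages, *Pou1f1* was the only one called. It encodes the POU-homeodomain factor that activates *Gh*, *Prl* and *Tshb* (chr16:65520511-65535005, plus strand). It was at 16.3, 33.4, 35.6 and 21.4 CPM in the females and at 113, 62.7 and 142 CPM in the males. Each male exceeded each female, although male replicate 3 had less than the other males. The means were 26.7 ± 9.28 CPM (SD, n = 4) and 106 ± 40.1 CPM (SD, n = 3), a ratio of 3.97. The log2 fold change was 1.96 (SE 0.37) and the adjusted p, 0.0494, was just inside the threshold. Leaving out any of the 7 samples ended the call, with adjusted p between 0.0747 (without female replicate 3) and 0.147 (without male replicate 2), while the log2 fold change stayed between 1.68 and 2.23. It was lost also with no filter (0.0726) and with male replicate 1 included (0.278).

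The genes that POU1F1 is known to activate are given beside it. *Tshb*, the thyrotropin β subunit, was at 20.9, 69.0, 83.5 and 36.3 CPM in the females and at 339, 235 and 244 CPM in the males. Its sexes did not overlap, and its log2 fold change was 2.35 (SE 0.46, adjusted p = 0.0525). *Gh* was between 12394 and 57859 CPM in the females and at 65329, 77150 and 142244 CPM in the males (log2 fold change 1.14, SE 0.53, adjusted p = 0.289). *Prl*, prolactin, overlapped, at 4671 to 18125 CPM in females and 6227 to 15681 CPM in males. The thyrotrope marker sum did not overlap between the sexes, as given above, and the somatotrope sum, nearly all of it *Gh*, was 12397 to 57867 CPM in females and 65338 to 142305 CPM in males. *Ghrhr*, the other somatotrope marker, overlapped at 2.95 to 25.7 and 8.94 to 60.7 CPM (adjusted p = 0.373). The quasi-likelihood test called none of these 4 thyrotrope and somatotrope genes. *Tshb* passed the threshold in 5 of the 17 alternatives, with DESeq2 (adjusted p = 9.34e-05), the exact test (0.000615), at least 10 counts in every sample (0.0415), library size alone (0.0496) and counts summed over shared loci (0.04999). The part of these cells in the *Pou1f1* difference was not tested.

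*Tbx19* encodes the T-box factor of *Pomc*-expressing cells (chr1:165137855-165160773, minus strand). It was at 27.2, 28.4, 27.6 and 24.3 CPM in the females and at 39.0, 27.2 and 54.1 CPM in the males. Male replicate 3 lay among the females, and the other males were above them. The log2 fold change was 0.55 (SE 0.24, adjusted p = 0.266). *Pomc* was between 12418 and 22026 CPM in females and at 17005, 10140 and 28580 CPM in the males, so that male replicate 4 had the highest level of both genes and male replicate 3 the lowest of the males. That order over 3 samples is a description.

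*Neurod1* and *Neurod4* encode basic helix-loop-helix factors known from neurons and endocrine cells, and *Neurod1* from corticotropes. *Neurod1* (chr2:79452521-79456751, minus strand) was at 192, 116, 183 and 229 CPM in the females and at 144, 161 and 126 CPM in the males. Its sexes overlapped because of female replicate 2, with a log2 fold change of -0.36 (SE 0.23, adjusted p = 0.463). *Neurod4* (chr10:130268152-130280240, minus strand) was at 168, 32.1, 67.3 and 134 CPM in the females and at 49.1, 44.1 and 72.2 CPM in the males. Relative to its mean it had the widest spread of the 9 genes among females, with both the highest and the lowest value of the 7 samples there, and a log2 fold change of -0.89 (SE 0.54, adjusted p = 0.432). *Cerkl*, which spans *Neurod1* on the same strand and shares its locus, had 61 to 307 counts a sample against 2375 to 5960 for *Neurod1*.

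**Figure D2:**
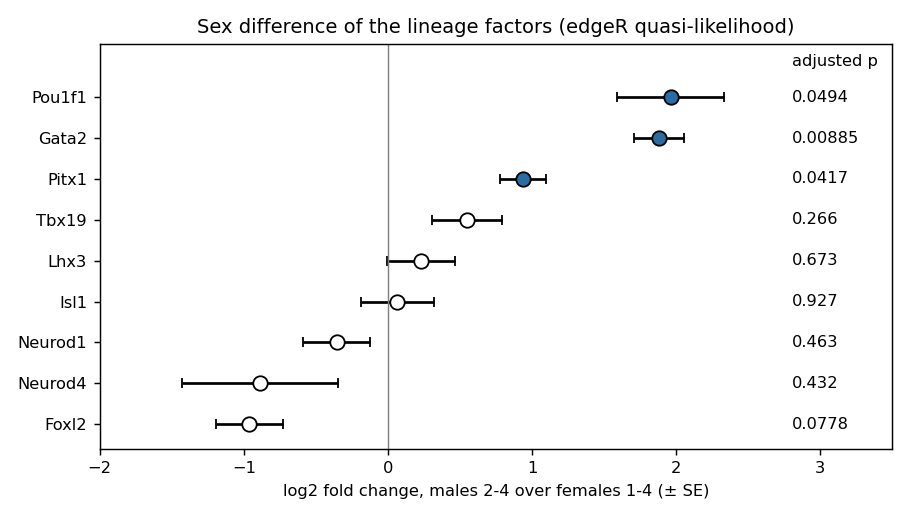
Log2 fold changes of males 2 to 4 over females 1 to 4 are plotted as points with bars of ± SE from edgeR's quasi-likelihood fit, filled where called, with the adjusted p at the right. *Gata2* (1.88), *Pou1f1* (1.96) and *Pitx1* (0.94) passed the threshold, and *Foxl2* (-0.96) did not.

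Levels were then compared between genes, to set the gonadotrope factors against those of other lineages within a sample. CPM was divided by the kilobases of exon that GENCODE M21 gives for each gene. *Pitx1* was the highest in every sample, with a mean of 251 CPM per kb in females and 491 CPM per kb in males. In females it was followed by *Neurod1* (66.0), *Lhx3* (45.1), *Isl1* (30.6), *Neurod4* (29.9), *Foxl2* (29.1), *Gata2* (12.2), *Tbx19* (8.42) and *Pou1f1* (6.85 CPM per kb). Neighbours in this order whose female samples did not overlap were *Pitx1* and *Neurod1*, *Foxl2* and *Gata2*, and *Gata2* and *Tbx19*. The ranges of the other neighbours overlapped across samples, although within each female *Neurod1* was above *Lhx3* and *Lhx3* above *Isl1*. In males the order after *Pitx1* was *Lhx3* (54.1), *Neurod1* (52.7), *Gata2* (45.9), *Isl1* (32.8), *Pou1f1* (27.2), *Neurod4* (16.5), *Foxl2* (15.3) and *Tbx19* (12.6 CPM per kb). There only *Pitx1* and *Lhx3* were separated as neighbours by their ranges across samples. Within each of these males *Gata2* was above *Isl1*, and *Pou1f1* was above *Neurod4*. With the longest transcript in place of all exons, *Tbx19* and *Pou1f1* traded places in females and *Neurod1* and *Gata2* in males.

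Factors of other lineages were not all below the gonadotrope factors. *Neurod1* was above each of *Gata2*, *Foxl2* and *Isl1* per kilobase in all 4 females, at 42.5 to 84.0 CPM per kb against at most 38.8 for any of these. In males it was at 46.2 to 59.1 CPM per kb, and *Gata2* at 34.6 to 56.7 overlapped it. *Foxl2*, at 11.4 to 19.8 CPM per kb in males, overlapped there with *Tbx19*, at 8.52 to 16.9, and with *Pou1f1*, at 16.1 to 36.5.

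**Figure D3:**
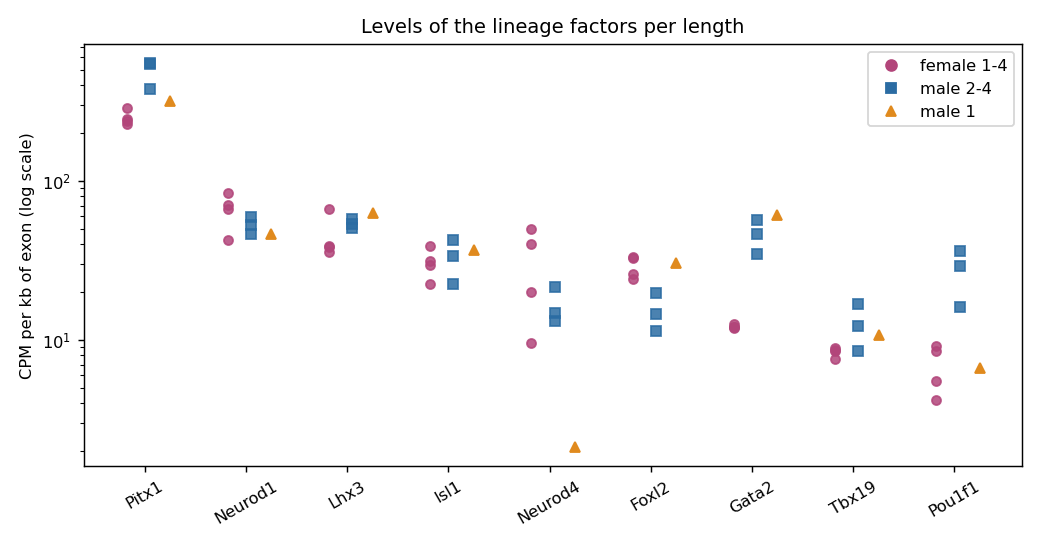
Each point is the CPM per kilobase of exon of a gene in a sample, on a log axis, with genes ordered by their female mean. *Pitx1* is above the others in all 8 samples, *Gata2* (12.2 CPM per kb on average in females) and *Pou1f1* (6.85) sit lower in females than in males 2 to 4, and *Neurod4* in male 1 is the lowest point at 2.11 CPM per kb.

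Summed per kilobase, the gonadotrope factors (*Gata2*, *Foxl2* and *Isl1*) were at 0.629, 0.870, 0.646 and 0.549 times the factors of other lineages (*Pou1f1*, *Tbx19*, *Neurod1* and *Neurod4*) in the females. The ratio was 1.01, 1.07 and 0.565 in male replicates 2 to 4 and 1.94 in male replicate 1. By this ratio male replicates 2 and 3 were above the females, and male replicate 4 lay within the female range. *Neurod1* and *Neurod4* made up most of the sum of the other lineages. Their means were 66.0 and 29.9 CPM per kb in females, against 8.42 for *Tbx19* and 6.85 for *Pou1f1*. In males these 4 means were 52.7, 16.5, 12.6 and 27.2 CPM per kb. In every female *Pou1f1* and *Tbx19*, at most 9.14 CPM per kb, were below each gonadotrope factor, at least 11.9. A ratio without *Neurod1* and *Neurod4* was not formed. Among the males, replicate 4 had the lowest *Gata2*, *Foxl2*, *Isl1* and *Pitx1* and the highest *Pou1f1*, *Tbx19* and *Neurod4*, but the lowest *Neurod1*. It also had the highest *Gh*, *Ghrhr* and *Pomc*, and, by its *Cga*, the highest summed gonadotrope markers (75133 CPM), while *Lhb*, *Fshb* and *Gnrhr* were lowest there of the males. The part of the other cell types in its ratio was not tested.

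Known targets of the factors formed a list of 12 genes over the lineages, and of these the quasi-likelihood test called *Fshb*, higher in males, while *Tshb* was called only in the alternatives given above. That is 1 of 12, against 0.983% of all entries called higher in males. *Fshb* was at 1430, 3086, 1402 and 5699 CPM in the females and at 30469, 30905 and 16894 CPM in the males. The lowest male was well above the highest female, and the log2 fold change was 3.13 (SE 0.56, adjusted p = 0.0449). Leaving out any sample but female replicate 4 ended the call, with an adjusted p up to 0.135 (without male replicate 3), and so did no filter (0.0581) and including male replicate 1 (0.143). *Fshb* and *Foxl2* thus had opposite order between the sexes in these samples. *Lhb*, the luteinizing hormone β subunit, was at 4139 to 6519 CPM in females and 6286 to 9610 CPM in males (log2 fold change 0.55, SE 0.20, adjusted p = 0.189). *Cga*, the α subunit of these hormones and of thyrotropin, was at 13359 to 25090 CPM in females and 24630 to 50707 CPM in males (0.90, SE 0.32, adjusted p = 0.187). *Gnrhr*, the receptor for the hypothalamic hormone GnRH, overlapped at 657 to 1559 and 1245 to 2199 CPM. The median log2 fold change of the list was 0.82, against -0.03 over all entries tested.

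**Figure D4:**
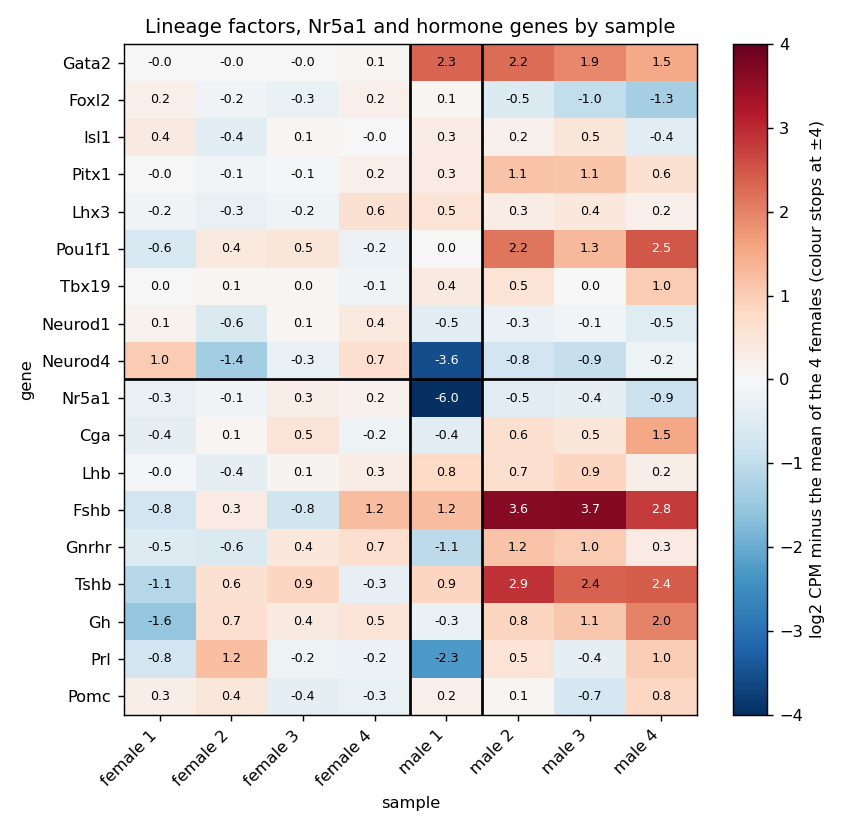
Colours and printed values give log2 CPM minus the mean of the 4 females, with genes in rows and samples in columns, and the colour scale stops at ±4. *Gata2*, *Fshb* and *Tshb* are above the female mean in all male samples, and *Nr5a1* and *Neurod4* are lowest in male 1.

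Other pituitary transcription factors formed a list of 20 genes, of which 19 passed the filter and 15 had a mean of at least 10 CPM. The quasi-likelihood test called *Sox9* alone of the 19, lower in males, and 2.34% of all entries. DESeq2 called 4 (*Sox9*, *Sox2*, *Lhx4* and *Hesx1*) and 11.6% of all entries, the exact test 3 (*Sox9*, *Lhx4* and *Hesx1*) and 5.14%, and library size alone 2 (*Sox9* and *Sox2*) and 4.01%. *Sox9*, a factor known from pituitary stem cells, was at 304, 193, 243 and 232 CPM in females and at 124, 135 and 108 CPM in males (log2 fold change -1.02, SE 0.18, adjusted p = 0.0417). *Sox2*, another stem cell factor, was at 49.5 to 77.8 CPM in females and 29.8 to 37.1 CPM in males (adjusted p = 0.0748). The stem cell markers *Sox2*, *S100b* and *Sox9* summed to 244 to 383 CPM in females, 138 to 173 CPM in males and 305 CPM in male replicate 1. Nearly all of this sum was *Sox9* and *Sox2*, and *S100b* overlapped at 0.368 to 1.47 CPM in females and 0.227 to 0.906 CPM in males. *Foxl2* had the same order between the sexes as the sum, and the part of stem cells in it was not tested. Leaving out any of the 7 samples ended the call of *Sox9*, with an adjusted p of 0.058 (without female replicate 1) to 0.135 (without male replicate 2), and it was lost also with no filter (0.0665) and with male replicate 1 included (0.438).

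Within this list *Six6*, a homeodomain factor, was nearly equal at 218 to 249 CPM in females and 229 to 254 CPM in males. *Egr1*, the GnRH-induced activator of *Lhb*, was at 2073 to 2874 CPM in females and 1516 to 1937 CPM in males, without overlap (log2 fold change -0.51, SE 0.16, adjusted p = 0.135). *Nr5a1* was at 862 to 1266 CPM in females and 584 to 801 CPM in males (-0.61, SE 0.18, adjusted p = 0.13). *Lhx4*, the paralog of *Lhx3*, was at 3.38 to 10.5 CPM in females and 12.7 to 30.8 CPM in males (1.70, SE 0.43, adjusted p = 0.0887). The log2 fold changes of *Six3*, *Pax6*, *Insm1*, *Hes1*, *Msx1* and *Nr4a1* lay between -0.42 and 0.18, with no call. Over the list the median was -0.26, and 7 of the 19 (36.8%) did not overlap between the sexes, against 22.3% of all entries tested.

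Partners of the factors formed a list of 13 genes, all of which passed the filter. With the settings used here edgeR's quasi-likelihood test called none, with 4 of the 13 (30.8%) at an unadjusted p under 0.05, against 19.9% of all entries tested, and DESeq2, which called 11.6% of all entries, called 3 (*Zfpm1*, *Zfpm2* and *Smad3*). The nearest to the threshold was *Smad3*, which works with FOXL2 on the *Fshb* promoter. It was at 154, 173, 147 and 115 CPM in females and at 85.9, 81.5 and 60.9 CPM in males, and so had the same order as *Foxl2* (log2 fold change -0.98, SE 0.20, adjusted p = 0.0529). *Smad3* passed the threshold with at least 10 counts in every sample (0.0422), robust dispersion (0.0480), library size alone (0.0367) and DESeq2 (0.000537). *Smad4*, its partner, was at 102 to 138 CPM in females and 63.6 to 89.6 CPM in males (-0.58, SE 0.18, adjusted p = 0.141). Of the GATA cofactors, *Zfpm1* was at 1.15 to 2.46 CPM in females and 0.378 to 0.545 CPM in males, without overlap (-2.06, SE 0.45, adjusted p = 0.0654), and was called also with at least 10 counts in every sample, the exact test and library size alone. *Zfpm2* was at 5.86 to 9.30 CPM in females and at most 13.7 CPM in males, also without overlap (0.78, SE 0.22, adjusted p = 0.113). Among the proteins that join LIM factors, *Ldb1* was lowest in female replicate 4 and *Ldb2* was at 22.5 to 31.0 CPM over the 7 samples. The E-proteins that pair with NEUROD factors varied within a sex, with *Tcf3* at 3.31 to 50.6 CPM in females and 1.93 to 20.3 CPM in males, and *Tcf4* at 34.5 to 105 CPM over the 7 samples. *Id1*, *Id2* and *Id3*, which encode inhibitors of such pairing, were all highest in female replicate 1, at 292, 469 and 485 CPM. *Lmo4* was lowest there, at 13.4 CPM against 119 to 195 CPM in the other 6.

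Paralogs of the 9 factors formed a list of 23 genes, and 12 passed the filter. The quasi-likelihood test called none, with 1 (*Lhx4*) at an unadjusted p under 0.05, against 19.9% of all entries, and DESeq2 and the exact test, which called 11.6% and 5.14% of all entries, called *Lhx4*, and the median log2 fold change was 0.00. *Gata4*, *Gata5*, *Neurod2* and *Neurod6* had 0 counts in all 8 samples, and *Gata3* was at 0.500 to 4.93 CPM over the 7 samples compared. *Pou2f1*, *Pou6f1* and *Tbx3* were at 13.8 to 24.3, 12.5 to 17.2 and 6.61 to 14.2 CPM over the 7 samples.

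Male replicate 1 was then set against the other males, the same samples as in the comparison of the sexes, and as 1 sample it allows no test. A gene was called when it was at least 2-fold away from their mean and outside their range, which held for 2 of the 9 factors, and for 3, with *Foxl2* added, under library size alone, DESeq2 size factors or without male replicate 2. It held for 30.7% of all entries tested and for 23.0% of the 10516 entries with a mean of at least 10 CPM (14.3% lower and 8.69% higher). *Neurod4* had 162 counts in male replicate 1, or 7.07 CPM, which was 7.79-fold lower than the mean of the other males and below all 7 other samples. *Pou1f1* was at 25.8 CPM there, 4.10-fold lower than in the other males and inside the female range of 16.3 to 35.6 CPM. *Nr5a1* was 44.0-fold lower than in the other males by the same measure.

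The other lineage factors of male replicate 1 moved less. *Foxl2* was at 99.2 CPM, 1.99 times the mean of the other males, above their range and inside that of the females. *Pitx1*, at 841 CPM, was 0.644 times their mean, below their range and above all females. *Gata2*, at 330 CPM, was the highest of all 8 samples and 1.33 times their mean. *Isl1* (145 CPM), *Tbx19* (34.2 CPM) and *Neurod1* (128 CPM) were inside the range of the other males, and *Lhx3* (192 CPM) was above it at 1.17 times their mean. *Gata2* was therefore high and *Nr5a1* low in the same library. The thyrotrope markers summed to 83.6 CPM and the somatotrope markers to 30152 CPM there, both below all other males, although *Ghrhr*, at 24.7 CPM, was inside their range. *Prl*, the lactotrope marker, was at 1621 CPM, the lowest of all 8 samples. The part of these cells in the low *Pou1f1* was not tested. Stem cell markers summed to 305 CPM, above the 138 to 173 CPM of the other males. The endothelial markers *Pecam1*, *Cdh5* and *Plvap* summed to 357 CPM, against 183 to 262 CPM in the other samples. The part of stem and endothelial cells in the values of male replicate 1 was not tested.

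**Figure D5:**
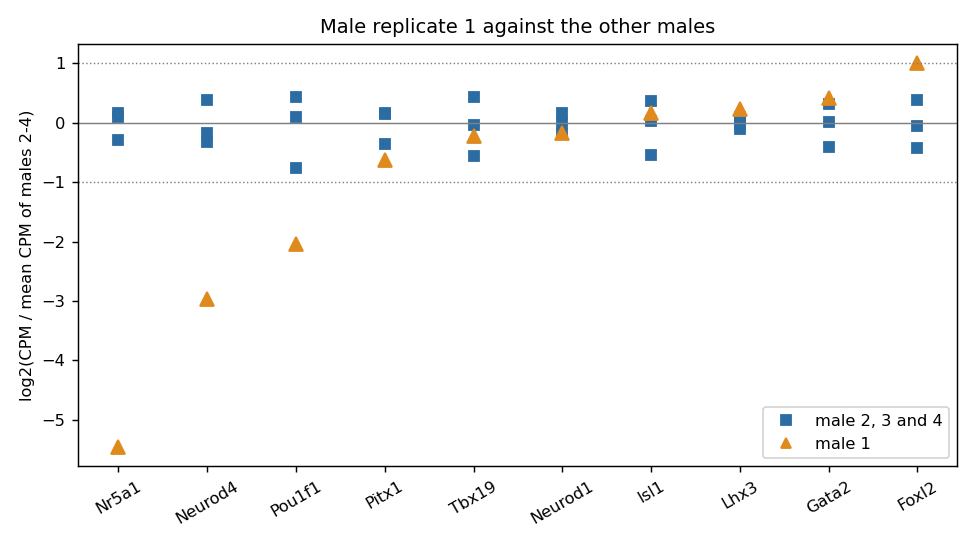
Log2 of the CPM over the mean CPM of males 2 to 4 is plotted for *Nr5a1* and the 9 factors, with squares for males 2, 3 and 4, a triangle for male 1, and dotted lines at 2-fold. *Nr5a1*, *Neurod4* and *Pou1f1* of male 1 lie below the lower line, and *Foxl2* (1.99 times the mean) lies at the upper one.

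The genes most like each factor in pattern were found among 9852 entries with a mean of at least 10 CPM over the 8 samples, by the Pearson correlation of log2(CPM + 1) over the 7 samples. These values share libraries and are the highest of many, so they are descriptions without a test, and each is followed by its value with male replicate 1 added. For *Gata2* the nearest were *Fam110c* (0.995, then 0.848) and *Hecw2* (0.994, then 0.552). For *Foxl2* they were *Slc12a4* (0.993, then 0.966) and *Wsb1* (0.988, then 0.972). For *Isl1* they were *Pcdh12* (0.969, then 0.933) and *Trib2* (0.963, then 0.943). Male replicate 1 thus left the genes nearest to *Foxl2* and *Isl1* close and parted those nearest to *Gata2*.

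For *Pitx1* the nearest were *Dsp*, which encodes desmoplakin (0.998, then 0.997), and *Lysmd3* (0.993, then 0.919). For *Lhx3* they were *Cc2d1b* (0.974, then 0.977) and *Gss*, glutathione synthetase (0.971, then 0.942). *Dsp* was at 78.8 CPM on average in females, 169 CPM in males and 97.0 CPM in male replicate 1. For *Pou1f1* they were *Lbr*, the lamin B receptor (0.993, then 0.833), and *Pdk3* (0.980, then 0.976), and for *Tbx19* *Hist1h1d* (0.998, then 0.659) and *Junb* (0.971, then 0.880). *Hist1h1d* entered through male replicate 1, at 29.0 CPM there against means of 5.85 CPM in females and 10.04 CPM in males. For *Neurod1* they were *Trpm7* (0.973, then 0.0876) and *Tm7sf3* (0.968, then 0.964), and for *Neurod4* *Ppp2r2a* (0.984, then -0.0439) and *Nab1* (0.970, then 0.192). Both genes nearest to *Neurod4* lost their likeness once male replicate 1 was added.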

How the data were processed

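The authors deposited unnormalized read counts per gene for each of the 8 samples in a single table. Per the labels and the methods of the study, trimming was done with cutadapt, mapping to mm10 (GRCm38) with STAR and counting with featureCounts at default parameters, which ignore strand and leave out reads that overlap more than 1 gene. The annotation is not given in the sources used here. Genes that share a locus may lose or split reads, which bears on *Pitx1* and *Neurod1*. Whole pituitary samples were not used here.

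Males (replicates 2 to 4) and females (replicates 1 to 4) were compared with edgeR 4.0.16 in R 4.3.3: TMM factors, filterByExpr, the quasi-likelihood test and Benjamini-Hochberg adjustment over all entries tested. The SE is the absolute log2 fold change divided by the square root of F. CPM used TMM factors over the 8 samples, and exon lengths came from GENCODE M21. The pseudocount for correlations was 1 CPM. Tables and plots used Python 3.11.15, pandas 2.3.3, numpy 2.4.6 and matplotlib 3.10.9.

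The 9 members, the lists and the tests were chosen with earlier results of these data known. The genes named are the members, entries sharing their locus or antisense to them, the 2 most similar entries to each (symbols of Gm or Rik form left out), the targets, and, of the other lists, those past the threshold or with a mean of at least 10 CPM; a few of these are not reported here. *Hesx1*, *Zfpm1*, *Zfpm2*, *Gata3* and the genes at 0 counts were named after their values were seen. The alternatives were DESeq2 1.42.0, the exact test, robust dispersion, upper-quartile scaling, DESeq2 size factors, library size alone, other filters, all 8 samples, a replicate block, counts summed over shared loci, a 3-fold limit and each replicate left out. The background at 10 CPM and the longest transcript were chosen after the data were seen.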

Additional observations from a re-analysis of the deposited data

Results flagged for a closer look

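A sample far from the others of its sex was looked for with Dixon's test in the 4 females and in the 4 males, for the 9 factors and the 3 genes at their loci, which makes 24 groups. It found 2, where chance gives about 1.2 (1 in 20 groups).

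*Lhx3* was at 202.7 CPM in female replicate 4, and at 109 to 119 CPM in the other females. Without this sample, the log2 fold change (male over female) was 0.50 in place of 0.23, with an adjusted p of 0.117 by edgeR's quasi-likelihood test.

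*Gata2* was at 68.5 CPM in female replicate 4, and at 64.4 to 64.8 CPM in the other females. The other females lay close together, and the gap is small beside the male values of 187 to 306 CPM. Without this sample the log2 fold change was 1.92, with an adjusted p of 0.0225.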

How the results depend on the processing

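The count of entries that differed between the sexes moved more than the call of *Gata2*. It was 471 (3 of the 9 factors), and 2329 with DESeq2 (4 factors, *Foxl2* added), 1035 with the exact test, 808 with library size alone, 177 with no filter (1 factor) and 67 with all 8 samples (1 factor). With 1 replicate left out it was between 88 (without male replicate 3) and 171 (without female replicate 1), with 1 to 2 factors called. *Gata2* was called in each of these fits. With library size alone 16.5% of calls were higher in males, against 42.0% with TMM, and the median over all entries, on the log2 scale, moved from -0.03 to -0.24. *Isl1* changed direction with library size alone (-0.14), without female replicate 2 (-0.03) and without male replicate 3 (-0.16), with no call, and its log2 fold change with 1 replicate left out reached 0.27 (without male replicate 4). *Foxl2* kept its direction in all 17 alternatives and passed in 2.

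The sources used here do not say whether same-numbered samples share more than a number. Their deviations correlated by -0.0193, -0.00823 and -0.000805 over genes. With so few pairs these values show no pairing but cannot exclude it. With the replicate block edgeR called 0 entries and 0 factors (adjusted p = 0.216 for *Gata2*), with 2954 entries and 4 factors at an unadjusted p under 0.05. DESeq2, without the block, called 2329.

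Depth did not limit the 9 factors, whose lowest count was 162, but *Sox3* and several paralogs were too low to test. Between 3 and 4 samples a sex limit the precision.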

Other observations

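Among genes related to the lineage factors, 2 were picked after their values were seen. *Six3*, a homeodomain factor, was at 65.3, 114, 102 and 13.2 CPM in the females, with female replicate 4 lowest of all 8 samples, and at 55.3 to 72.2 CPM in the males. *Hesx1*, an early repressor of pituitary development, was at 0.460 to 1.56 CPM in females, highest in male replicate 3 at 7.25 CPM, without overlap between the sexes (log2 fold change 2.45, SE 0.57, adjusted p = 0.0745 by edgeR's quasi-likelihood test).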
